A study of Mus musculus with 6 samples.

Results

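Of 112672 open-chromatin regions in leukemia stem cells (LSCs), 34915 (31.0%) lay inside introns of protein-coding genes, away from any gene start. Peaks of the 6 deposited lists that overlapped by at least 1 bp were merged on chromosomes 1 to 19 and X. A region was kept here when its midpoint fell within a protein-coding gene of GENCODE M21 but in no exon, more than 5 kb and at most 100 kb from the nearest protein-coding start, and more than 1 kb from the start of any other gene. The rule used position only, and no peak height entered it. The cells were murine L-GMPs, the LSC-enriched granulocyte-macrophage progenitor population of MLL-AF9 leukemia, labelled as wild-type genotype and blood tissue. Both groups grew in medium with 20% serum and 10 ng/ml mouse interleukin-3, and both carry the leukemia, so neither is a normal blood cell. 3 control samples were compared with 3 samples exposed for 24 h to mycophenolate mofetil (MMF), a prodrug that blocks the inosine monophosphate dehydrogenases and thereby the making of guanine nucleotides. The exposure time and concentration given for these libraries differ between the parts of the study's own description, so only the labelled time is given and no concentration. The labels do not say whether the 3 samples of a group came from separate cultures or animals, so p-values measure the spread between these samples, which may be technical.

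ATAC-seq uses a transposase that cuts DNA where nucleosomes leave it exposed, and a peak marks such a site. Open sites within introns, distant from starts, are commonly enhancers: short stretches that bind transcription factors and act on a start at a distance, often that of the gene that holds them. In myeloid cells, such sites are typically bound by PU.1, C/EBP, RUNX and AP-1 factors. PU.1 and C/EBP proteins drive granulocyte and macrophage development, RUNX1 acts throughout blood formation, and AP-1 joins FOS and JUN proteins that respond to signals. CTCF, in contrast, marks boundaries of chromatin loops, and KLF, NF-Y, ELK and MYC sites are common at promoters.

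The following 200-bp windows, centred on a peak summit and read from the plus strand of GRCm38, show intronic regions picked for large changes. Capitals mark matches on either strand to the letters TTGCNNAA (C/EBP), GAGGAAGT (PU.1), AACCACA (RUNX), TGANTCA (AP-1) or CAGGGGGC (CTCF). The first pair had the largest increases in rank with MMF among intronic regions open in all samples that passed the test described below.
Ank2 (chr3:126932007-126932206): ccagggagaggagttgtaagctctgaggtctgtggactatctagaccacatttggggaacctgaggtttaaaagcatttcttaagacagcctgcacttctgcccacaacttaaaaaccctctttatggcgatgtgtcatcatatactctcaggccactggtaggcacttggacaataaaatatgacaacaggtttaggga
Arhgap24 (chr5:102537882-102538081): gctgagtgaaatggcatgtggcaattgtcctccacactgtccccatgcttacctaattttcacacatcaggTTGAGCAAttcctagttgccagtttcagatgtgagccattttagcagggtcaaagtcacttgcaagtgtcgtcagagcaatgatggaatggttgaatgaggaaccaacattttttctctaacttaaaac
The next pair had the largest decreases among intronic regions that passed the same test.
Bms1 (chr6:118397439-118397638): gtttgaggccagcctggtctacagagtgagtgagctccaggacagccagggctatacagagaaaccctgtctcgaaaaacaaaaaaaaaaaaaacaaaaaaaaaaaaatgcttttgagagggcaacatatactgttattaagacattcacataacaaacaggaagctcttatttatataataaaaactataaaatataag
Tdrd1 (chr19:56848142-56848341): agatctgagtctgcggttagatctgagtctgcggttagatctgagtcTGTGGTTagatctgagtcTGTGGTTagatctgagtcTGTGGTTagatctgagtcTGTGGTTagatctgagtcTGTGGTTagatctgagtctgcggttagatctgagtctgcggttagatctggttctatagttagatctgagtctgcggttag
The following pair had peaks in all 3 MMF lists and in no control list, and the last had peaks in all 3 control lists and in no MMF list.
Ank3 (chr10:70009709-70009908): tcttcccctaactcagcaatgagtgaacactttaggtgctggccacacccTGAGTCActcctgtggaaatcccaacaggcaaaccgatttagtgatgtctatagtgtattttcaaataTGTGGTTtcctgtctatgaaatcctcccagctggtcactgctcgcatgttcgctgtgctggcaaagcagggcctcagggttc
Lpar3 (chr3:146228680-146228879): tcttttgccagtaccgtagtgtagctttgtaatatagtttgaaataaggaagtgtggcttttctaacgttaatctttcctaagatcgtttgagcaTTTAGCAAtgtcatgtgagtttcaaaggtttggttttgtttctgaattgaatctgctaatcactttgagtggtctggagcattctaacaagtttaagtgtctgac
Zfp934/Zfp935 (chr13:62508774-62508973): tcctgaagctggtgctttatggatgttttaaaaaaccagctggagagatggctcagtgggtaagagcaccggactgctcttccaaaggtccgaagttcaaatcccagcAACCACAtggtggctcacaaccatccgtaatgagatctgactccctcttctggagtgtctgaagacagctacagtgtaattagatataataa
The C/EBP word stood in the Arhgap24 and Lpar3 windows and in none of the 3 windows that were weaker or absent with MMF. Among all intronic regions, 15.6% held this word. It was also present at a fall in Arfgef2 and at the lost site in Jade2, both named below. So few picked windows cannot tie the word to a direction of change. The Tdrd1 window held 5 RUNX matches inside a tandem repeat, and Zfp934/Zfp935 held 1. At Bms1, 76.5% of the window was marked as repeat in the reference sequence, at Zfp934/Zfp935 83.5%, and at Ank2 1.00%.

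Control lists held 58403 to 63802 peaks and MMF lists 80774 to 86437, with a smallest −log10 p of 3.01 or 3.02 in each list. A whole number of reads at the summit could be solved for every peak from its fold enrichment and p, with a median of 14 to 19 reads per peak. The lowest local background of a list was 0.620 to 0.729 reads in control and 0.676 to 0.909 in MMF lists. Total read depth is not given in the files. Of 10 fixed progenitor markers, 7 to 9 had a promoter peak in control and 8 to 9 in MMF lists, and Mpo had none in any list. A promoter peak was found for 1 to 2 of 8 B cell markers, 4 of 8 T cell markers, 4 to 6 of 8 erythroid and megakaryocyte markers, 2 to 3 of 8 stromal markers and 0 to 2 of 8 neuronal markers. Pax5, Cd3e, Lck, Gata1 and Rbfox3 had none in any list, whereas Ebf1, Bcl11b, Tcf7, Cd28, Il7r, Klf1, Itga2b, Pf4, Col1a1 and Pdgfra had one in all 6. Among shared intronic regions in these lists, 1 of 5 in stromal and 1 of 8 in neuronal marker genes was called higher with MMF, and none in the other marker lists. Over all 41123 shared regions, 1.44% were called higher by that test, described below. Each marker list held only 1 to 9 shared intronic regions, and no test of these counts was made. The part of other cells in the results below was not tested.

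MMF-treated LSCs had more intronic peaks, and a larger share of their strongest peaks was intronic. Intronic regions with a peak numbered 17378, 16727 and 15621 without treatment and 25120, 24935 and 23105 after MMF, and the groups did not overlap. They took 27.9%, 27.7% and 27.5% of the control peaks, and 29.6%, 29.7% and 29.3% of the MMF peaks. The mean share was 27.7% ± 0.22 in control and 29.5% ± 0.23 with MMF (SD, n = 3 each), a difference of 1.81 percentage points (two-sided exact permutation test, p = 0.1, the smallest that 3 samples against 3 can give). With every list shortened to its 58403 peaks of lowest p, that difference was 0.322 percentage points. Among promoter regions, within 1 kb of a start, the share went the other way, from 22.0% ± 0.67 to 17.6% ± 0.50 (SD, n = 3 each, exact permutation p = 0.1). MMF lists were longer, and this lower share was not a fall in the number of promoter peaks.

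**Figure D1:**
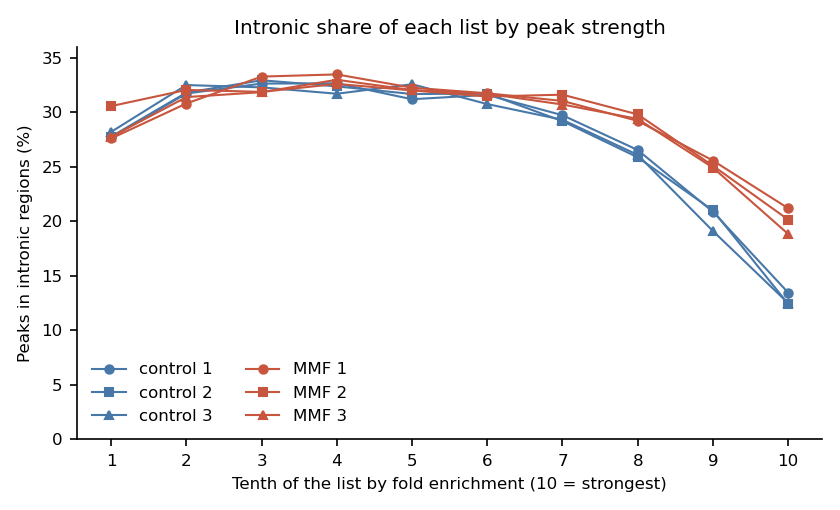
Percent of each list's peaks that lay in intronic regions (vertical axis), in 10 equal parts of the list ordered by fold enrichment (horizontal axis, 10 is strongest), with 1 line per sample. The 6 lines run together through the weaker parts and separate in the strongest, where MMF samples sit between 18.8% and 21.2% and control samples between 12.4% and 13.4%.

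The difference was larger at the strong end of the lists. Among the top 10% of peaks by fold enrichment, 13.4%, 12.4% and 12.5% were intronic in control and 21.2%, 20.2% and 18.8% with MMF. The means were 12.8% ± 0.58 and 20.1% ± 1.2 (SD, n = 3 each, exact permutation p = 0.1), a difference of 7.28 percentage points that became 6.58 with lists of equal length and 6.35 with peaks ranked by p. Among the weakest 10% the groups overlapped, at 27.9% ± 0.27 and 28.6% ± 1.7 (SD, n = 3 each, exact permutation p = 0.9). The median percentile rank of intronic peaks within their list was 43.8 ± 1.0 in control and 46.8 ± 0.38 with MMF (SD, n = 3 each, exact permutation p = 0.1). Peaks between genes at the same distances from starts moved alike: the intronic median lay 2.78 ± 0.95 percentile points under theirs in control and 2.04 ± 0.64 under with MMF, and these values overlapped (SD, n = 3 each, exact permutation p = 0.4). A gap particular to introns was thus not detectable with 3 samples a group. Intronic peaks were narrow, with a median merged width of 287 bp against 697 bp for promoter regions, and a median of 11 to 16 summit reads against 36 to 46.

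Peaks seen only with MMF far outnumbered peaks seen only in control. A peak was present in all 3 MMF lists and no control list at 2293 intronic regions (6.57%), which are called gained here. Over all regions, 6.01% were gained, so the intronic share was close to the background. The reverse pattern, called lost, held at 63 intronic regions (0.180%), beside 0.182% of all regions. Because MMF lists were longer, the lists were also compared at equal length: 645 of 25529 intronic regions were then gained (background 2.36%) and 368 lost (background 1.37%). Gained regions thus made up 97.3% of the intronic regions called either way in the whole lists, and 63.7% at equal length. At promoters the equal-length share was 33.5%, and between genes 62.8%. Gained intronic regions were mostly weak, with a median percentile rank of 33.7 and 10.7 summit reads, and lost ones weaker still, with a median rank of 23.4 and 8.67 reads.

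Most intronic regions lacked a peak in at least 1 list. 10439 (29.9%) had a peak in all 6 lists, beside 36.5% of all regions, and 9137 (26.2%) in 1 list alone. Peaks in MMF lists alone made up 12061 regions (34.5%), and peaks in control lists alone 2664 (7.63%). The more lists shared a region, the stronger and wider it was: the median rank went from 14.5 in 1 list to 63.5 in 6, the median width from 153 to 512 bp, and the mean repeat-masked share of the window from 22.1% to 13.4%.

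The 5 gained regions of highest mean rank in the MMF lists lay in Ank3, Lpar3, Tcf20, Cmc1 and Plpp3. In intron 41 of Ank3, which encodes a membrane-cytoskeleton adaptor, chr10:70009542-70010107 held 31.9, 41.1 and 47.3 summit reads per unit of genome background in the 3 MMF samples. In these units, called scaled reads, 1 is the lowest local background of that list. In intron 1 of Lpar3, a receptor for lysophosphatidic acid, chr3:146228610-146228929 held 31.9, 36.8 and 44.3 scaled reads with MMF. Both sites were called in each MMF sample at a level above the median intronic peak and were not called in any control sample, which puts control under the peak caller's threshold but not at 0. A site in Tcf20, a transcriptional coregulator, held 29.7, 31.2 and 37.0 scaled reads, and one in Cmc1, a cytochrome c oxidase assembly factor, 31.9, 28.3 and 42.9. The fifth, in Plpp3, a lipid phosphatase, varied most, at 45.1, 32.6 and 22.2. Most of the Cmc1 window was repeat (91.0%), whereas the Ank3, Tcf20 and Plpp3 windows had no repeat marked.

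The lost regions of highest rank were weaker. The site shared by the zinc-finger genes Zfp934 and Zfp935 (chr13:62508743-62508999) held 17.8, 15.9 and 14.5 scaled reads in the control samples, and one in intron 4 of Stpg1 (chr4:135517027-135517254) held 22.0, 15.9 and 16.1. Arfgef2, an exchange factor for ARF proteins in vesicle traffic, had a lost site in intron 14 (15.1, 18.8 and 29.0), and Zdhhc20, a palmitoyltransferase, one in intron 10 (11, 15.9 and 16.1). The site in intron 10 of Jade2, a subunit of histone acetyltransferase complexes, was the highest of them in scaled reads, at 23.3, 21.7 and 29.0. Its window held a C/EBP, a MYC and a CTCF match. Of the other four, Zfp934/Zfp935 held a RUNX match and Zdhhc20 an AP-1 match.

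To compare sites that were open in every sample, fold enrichment was ranked among the 41123 regions with a peak in all 6 lists, and the ranks were turned into normal scores. A score difference of 1 is then 1 SD of that ranking. limma with Benjamini-Hochberg adjustment over all 41123 regions called 199 of 10439 intronic regions higher with MMF (1.91%, background over all regions 1.44%) and 36 lower (0.345%, background 0.421%). Regions between genes were close, with 1.83% higher and 0.415% lower, whereas promoters had 0.152% and 0.438%. Among the intronic regions called higher, the median rank went from 18.1 in control to 72.7 with MMF, and scaled summit reads differed 2.78-fold in the median. Among those called lower, the median rank went from 46.5 to 5.69, and the median ratio of scaled reads was 0.628. These calls need all 6 libraries: without any 1 of the libraries, control 1, 2 or 3 or MMF 1, 2 or 3, the fit called 0 to 2 intronic regions higher and 0 lower, and with the replicate number as a block it called 0 either way.

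Ranks that did not overlap between groups were more common, and showed the same lean. All 3 MMF ranks exceeded all 3 control ranks at 1888 shared intronic regions (18.1%, background 12.9%), and all 3 lay below at 1059 (10.1%, background 16.2%). Between genes, the corresponding shares were 16.0% and 11.3%, and at promoters 2.63% and 29.5%. The median score difference was 0.090 for intronic regions, 0.040 between genes and -0.270 at promoters, against -0.066 over all shared regions, and 56.8% of intronic regions had a positive difference.

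**Figure D2:**
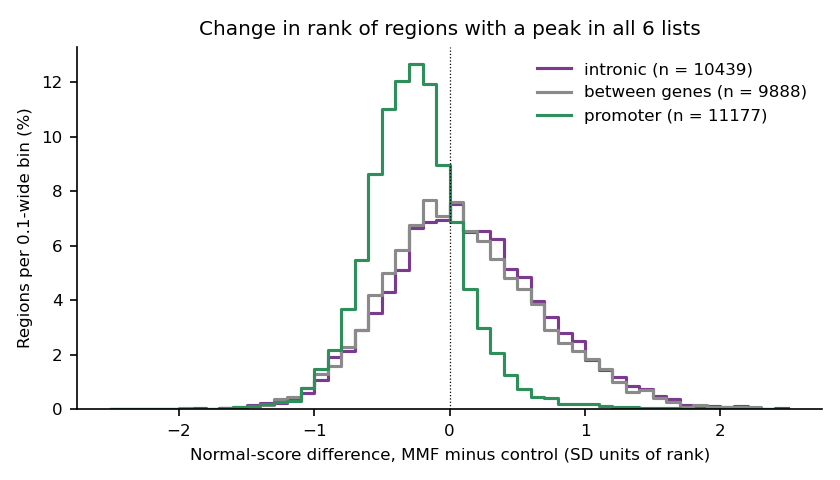
Distribution of the normal-score difference, MMF minus control (horizontal axis, in SD units of rank), over regions with a peak in all 6 lists, as the percent of regions per bin (vertical axis) for each class. The intronic and between-genes curves nearly coincide and spread to both sides of 0, with medians of 0.090 and 0.040, whereas the promoter curve is narrower and centred at -0.270.

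By construction, rank scores average close to 0 in every sample, so their mean difference over all shared regions is close to 0. A rise of some regions in rank is thus matched by a fall of others. On the other scale, log2 of scaled summit reads, the median over all shared regions was 0.17 higher with MMF, and that over intronic regions 0.36. The median intronic region held 23.3, 23.1 and 24.2 scaled reads in control and 31.9, 32.6 and 31.0 with MMF, whereas promoter regions held 71.3, 72.3 and 72.6 against 66, 70.8 and 68.0. limma on that scale called 2856 intronic regions higher (27.4%, background 18.6%) and 82 lower (0.786%, background 0.968%). Regions between genes had 23.3% higher and 0.769% lower, and promoters 2.96% and 1.16%. All 199 regions called higher by rank were among the 2856, and 25 of the 36 called lower were among the 82. The share of higher among called intronic regions was 84.7% by rank and 97.2% by scaled reads.

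The largest rise was at chr3:126931917-126932381, in intron 42 of Ank2, which encodes an ankyrin that tethers membrane proteins to the cytoskeleton. Scaled reads were 6.86, 10.1 and 9.67 in the control samples and 33.0, 35.4 and 42.9 with MMF, so each MMF sample was above each control sample. The score difference was 2.76 ± 0.33 (SE, limma adjusted p = 0.0256). In intron 1 of Arhgap24, a GTPase-activating protein, chr5:102537736-102538224 held 8.23, 15.9 and 16.1 in control and 46.2, 63.7 and 48.8 with MMF. Its score difference was 2.54 ± 0.41 (SE, limma adjusted p = 0.0344). In intron 14 of Ccar1, a regulator of cell cycle and apoptosis, a region held 12.3, 10.1 and 9.67 in control and 44.0, 53.8 and 42.9 with MMF. Ccar1 rose by 2.47 ± 0.26 score units (SE, limma adjusted p = 0.0227).

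The rest of the 10 largest rises among limma calls had score differences of 2.14 to 2.19. They lay in Rassf4 (a RAS-association protein), Slc20a2 (a phosphate transporter), Acpp (an acid phosphatase), Sgk3 (a serine kinase), Jarid2 (a component of Polycomb repressive complex 2), Arhgap12 (a GTPase-activating protein) and Rab3b (a GTPase of vesicle release). The ranks of the groups did not overlap at any of the 10, nor at any of the 199 regions called higher. Over all shared regions, 12.9% had such a separation. These regions were picked for large differences, so their separation adds no further support. At Sgk3, control samples held 9.60, 10.1 and 9.67 scaled reads and MMF samples 41.8, 31.2 and 35.5. At Jarid2, they held 6.86, 14.5 and 12.9 against 30.8, 39.7 and 38.4. Rab3b was the least even, with 59.1 in MMF 3 against 31.9 and 29.7 in the other two MMF samples. The regions at Arhgap24, Acpp, Sgk3 and Rab3b held the C/EBP word, and of these Sgk3 and Rab3b held the RUNX word as well.

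The 10 largest falls among limma calls were smaller in reads. The largest was in intron 13 of Bms1, a GTPase of ribosome assembly (chr6:118397475-118397624), where scaled reads were 13.7, 23.1 and 14.5 in control and 6.60, 7.08 and 10.3 with MMF. Its score fell by 2.01 ± 0.36 (SE, limma adjusted p = 0.0403). The region in intron 11 of Tdrd1, a germ-cell protein, is the tandem repeat printed above, with 15.1, 18.8 and 35.5 in control and 9.90, 9.92 and 8.87 with MMF. In intron 1 of Acsl1, which activates long-chain fatty acids, chr8:46479809-46480397 held 37.0, 36.2 and 40.3 in control and 15.4, 18.4 and 26.6 with MMF. Acsl1 fell by 1.87 ± 0.24 score units (SE, limma adjusted p = 0.0294). In intron 1 of Lpcat3, which remodels membrane phospholipids, chr6:124683651-124684109 held 34.3, 36.2 and 38.7 in control and 19.8, 18.4 and 20.7 with MMF. Lpcat3 fell by 1.83 ± 0.25 (SE, limma adjusted p = 0.0296). The other six lay in Scn3a (a sodium channel), Nrg1 (a ligand of ERBB receptors), Cyp2c66 (a cytochrome P450), Nudt5 (an ADP-ribose hydrolase), Sept9 (a septin) and Arfgef2, with score differences of -1.57 to -1.73. Among the 10 falls, Arfgef2 held the C/EBP word, Tdrd1 the RUNX word, and Acsl1, Lpcat3 and Sept9 the AP-1 word. The Cyp2c66 window was repeat throughout (100%). At Sept9, the test on scaled reads missed the threshold (limma adjusted p = 0.0656).

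**Figure D3:**
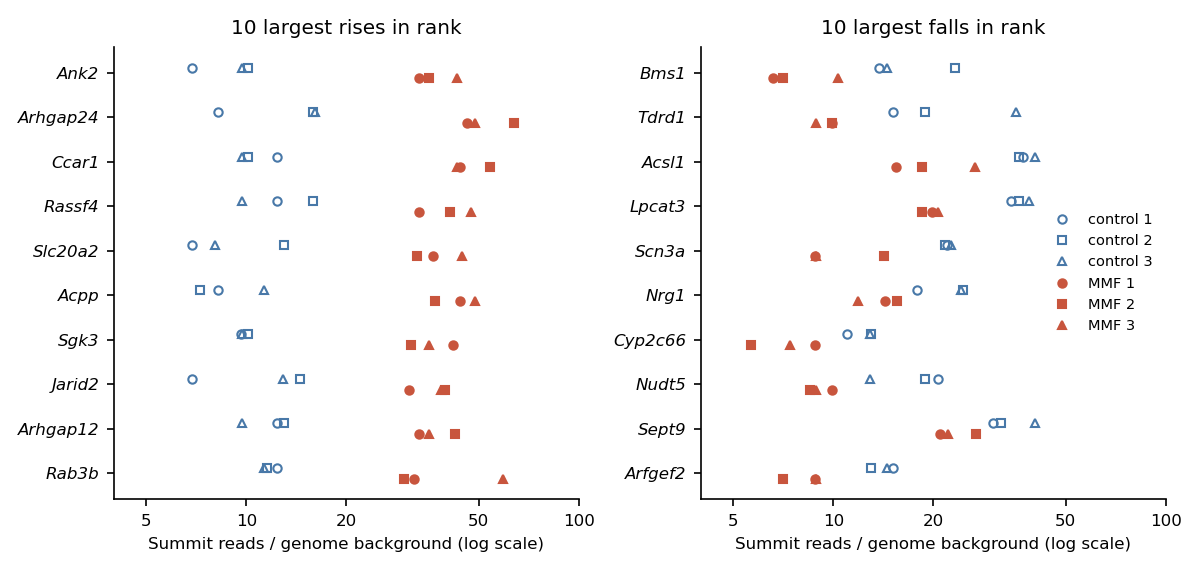
Scaled summit reads (horizontal axis, log scale, reads divided by genome background) by host gene (vertical axis). Shown are the 10 largest rises and the 10 largest falls in rank among intronic regions called by limma. Open blue symbols are control samples and filled red symbols MMF samples, with 1 symbol shape per replicate number. At every region the groups stand apart, and the regions were picked for large differences that passed the test.

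The strongest intronic regions stood at the top of every list by fold enrichment, where ranks leave little room to rise. By mean rank over the 6 lists, 1 per host gene, 9 of the first 10 lay in Chl1, Gnb1l, Itga9, Tiam2, Mylip, Lama1, Timd2, Zfp53 and Rsph3b. The one in intron 3 of Chl1, a neural adhesion molecule (chr6:103649062-103649357), held 27444, 26364 and 29212 scaled reads in control and 22986, 23147 and 23357 with MMF, far above the others named. That in intron 11 of Itga9, an integrin subunit, held 1961, 2051 and 1966 against 1510, 1683 and 1588. Each control count of scaled reads at Chl1 and Itga9 was above each MMF value, with log2 differences of scaled reads of -0.26 and -0.32 (limma adjusted p = 0.287 and 0.179). In none of these 9 did the score difference pass the test, which says little about stability so close to the top of the ranking. They were 164 to 336 bp wide. Repeats were marked in 10.5% to 89.5% of their windows, and no window held a 25-base match to the mitochondrial genome. In whole reads, the Chl1 summit held 15801 to 20899, against a median of 14 to 19 per peak in the lists. No list of known high-signal artefacts was used here to remove regions, and whether these 9 are such artefacts was not tested.

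Intronic regions matched the words of myeloid factors more often than introns at large did. Among 200-bp windows spaced evenly over the same intron space (59843 windows), 8.50% held the C/EBP word, 1.20% the PU.1 word, 4.99% the RUNX word and 5.96% the AP-1 word. Among intronic regions, these shares were 15.6%, 8.92%, 12.3% and 18.5%. Any of the 4 words was present in 46.6% of intronic regions, in 46.3% of regions between genes and in 17.4% of promoter regions. The words of promoter factors were rarer in introns than at promoters: KLF (CCACNCCC) was in 7.42% against 15.4%, NF-Y (CCAATCA) in 2.41% against 7.84%, ELK (CCGGAAGT) in 0.441% against 5.65% and MYC (CACGTG) in 4.04% against 7.46%. The CTCF word was in 2.14% of intronic regions, 4.06% of promoter regions and 0.436% of intron windows. 

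Words of other blood factors differed less between intronic regions and introns at large. The word of GATA factors, AGATAAG, was in 2.10% of intronic regions against 2.82% of intron windows, IRF (GAAANNGAA) in 6.94% against 7.37%, STAT (TTCNNNGAA) in 6.41% against 6.62% and HOX-PBX (TGATTTAT) in 0.917% against 1.08%. MYB (AACNGNC) was in 26.0% against 20.3%, and ETS-IRF (GGAANNGAA) in 9.03% against 6.36%. Some words overlap, since PU.1 and ELK end in the same letters, as do IRF and ETS-IRF. The intronic windows had a median GC content of 48% against 43% in the intron windows, which bears on GC-rich words.

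C/EBP matches were most frequent where accessibility was higher with MMF. The C/EBP word was in 512 of 2293 gained regions (22.3%), in 53 of the 199 called higher (26.6%), in 4 of the 36 called lower (11.1%) and in 3 of the 63 lost regions (4.76%), beside 17.9% of all shared intronic regions. Over all regions, it was in 23.5% of those gained, 28.3% of those called higher, 5.20% of those called lower and 6.83% of those lost. Its share was 14.5% of all shared regions. The pattern was thus not particular to introns. Shared intronic regions with the word had a median score difference of 0.268 (n = 1866), and those without it 0.055 (n = 8573). Per sample, 15.2%, 15.1% and 15.3% of intronic peaks held the word in control and 17.0%, 16.8% and 17.4% with MMF, a mean of 15.2% ± 0.095 against 17.1% ± 0.32 (SD, n = 3 each, exact permutation p = 0.1, adjusted 0.188 over 15 motifs). At equal list length the difference went from 1.86 to 3.1 percentage points. The windows of regions called higher and of gained regions had a median GC content of 46% and 46.5%, against 49.5% in all shared intronic regions, and the part of base composition in these shares was not tested.

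AP-1 and CTCF matches were less frequent in MMF than in control intronic peaks. The AP-1 word, the most frequent of the 4 myeloid words in shared intronic regions at 23.0%, was in 12.1% of those called higher and 16.5% of those gained. It was in 19.4% of those called lower, 17.5% of those lost and 17.1% of intronic regions with a peak in 3 lists. The AP-1 word was thus below 23.0% in intronic regions called in either direction. Over all regions, the AP-1 word was in 16.5% of those called higher and 16.9% of those shared. Per sample, it was in 20.5%, 20.4% and 21% of control intronic peaks and 19.4%, 19.1% and 19.4% of MMF peaks (exact permutation p = 0.1, adjusted 0.188). The difference of -1.34 percentage points shrank to -0.476 at equal list length. The CTCF word was in 2.66%, 2.84% and 2.71% of control intronic peaks and 2.24%, 2.15% and 2.08% of MMF peaks, and the groups did not overlap (exact permutation p = 0.1, adjusted 0.188). It was in 1 of the 199 regions called higher (0.503%) and 21 of the 2293 gained (0.916%), beside 2.58% of shared intronic regions. Of the 36 called lower, 0 held it, and of the 63 lost, 3 did (4.76%). Shared regions with a CTCF match had a median score difference of -0.199 (n = 269), and 33.1% of them had a positive difference.

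For PU.1, 8.92%, 9.09% and 9.04% of control intronic peaks and 9.57%, 9.53% and 9.43% of MMF peaks held the word (exact permutation p = 0.1, adjusted 0.188). The difference of 0.491 percentage points became 1.14 at equal list length. The PU.1 word was in 7.54% of the intronic regions called higher, below its 10.5% in shared intronic regions. Over all regions it stood higher, in 12.1% of those called higher and 8.19% of those shared. RUNX was in 18.6% of those called higher and 13.9% of shared regions, but its per-sample shares overlapped, at 12.8% ± 0.26 in control and 12.6% ± 0.14 with MMF (SD, n = 3 each, exact permutation p = 0.3, adjusted 0.375), and the difference of -0.232 points turned to 0.257 at equal list length. KLF was in 8.19% ± 0.11 of control and 7.39% ± 0.10 of MMF intronic peaks (SD, n = 3 each, exact permutation p = 0.1, adjusted 0.188). With 3 samples against 3, no motif could pass 0.05.

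**Figure D4:**
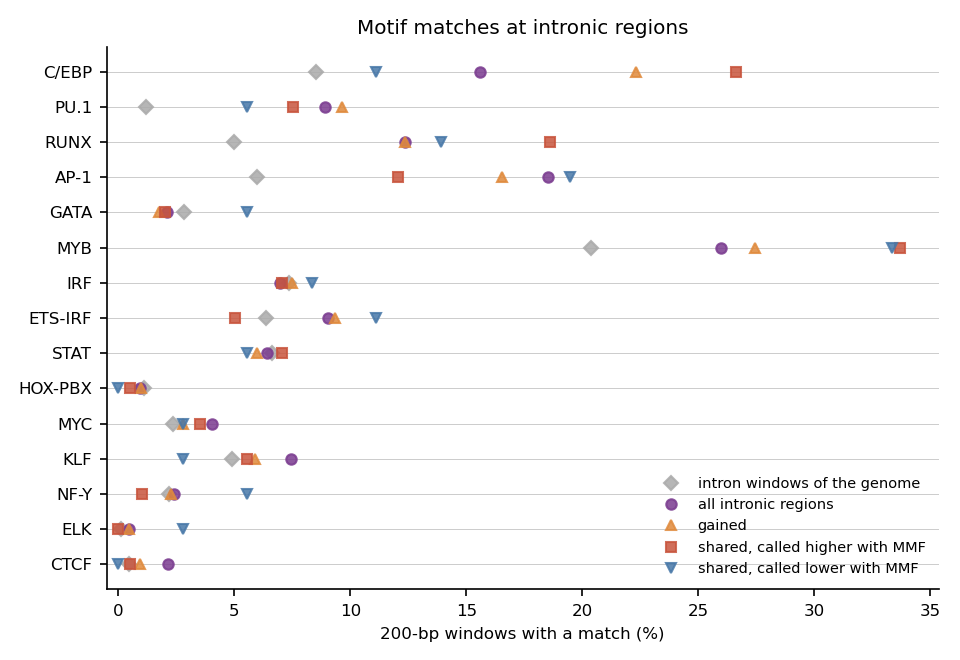
Percent of 200-bp windows with a match (horizontal axis) for each of 15 motifs (vertical axis), in evenly spaced intron windows, all intronic regions, gained regions, and shared regions called higher or lower with MMF. C/EBP stands at 8.50% of intron windows, 15.6% of intronic regions, 22.3% of gained regions and 26.6% of regions called higher.

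Intronic regions were densest close to gene starts. Introns that met the rule covered 598 Mb, 23.4% of the genome, with 58.3 regions per Mb. Space between genes held 49.5 per Mb, promoters 298 and space over 100 kb from any start 13.5. Within introns, density was 73.1 per Mb at 5 to 10 kb from a start, 68.5 at 10 to 20 kb, 57.4 at 20 to 50 kb and 42.5 at 50 to 100 kb, and the median distance was 22.6 kb. The gained share went from 5.76% in the nearest bin to 7.23% in the farthest, and the share of shared regions called higher from 1.48% to 2.38%, beside 6.01% and 1.44% over all regions. No test of these trends was made. Of the 32715 regions that could be placed in an intron of the longest transcript of a single host gene, 26.9% lay in the first intron, 15.8% in the second and 57.4% in later ones. Gained shares were 6.49%, 6.38% and 6.68% in turn. The nearest protein-coding start was that of the host gene for 77.2% of intronic regions.

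**Figure D5:**
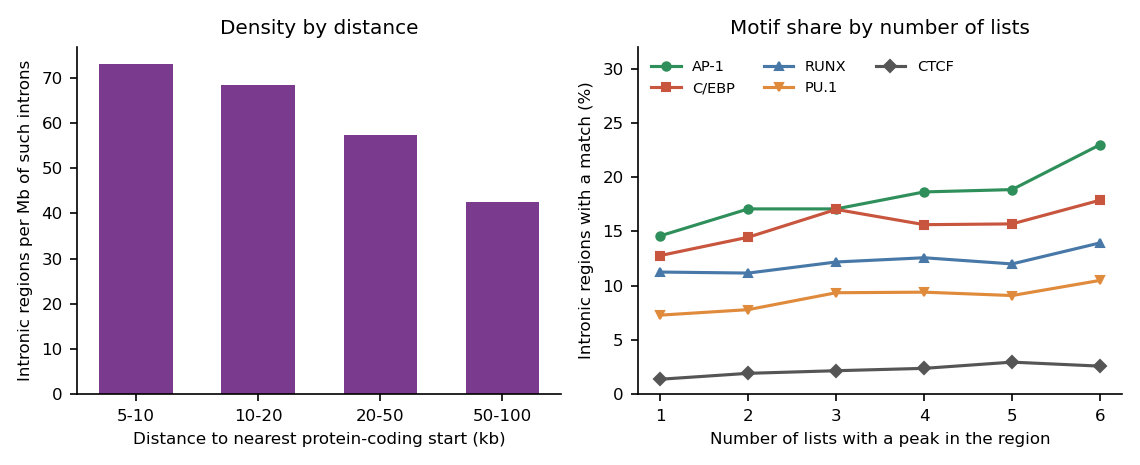
Left, intronic regions per Mb of introns that met the rule (vertical axis) by distance to the nearest protein-coding start in kb (horizontal axis), falling from 73.1 to 42.5. Right, percent of intronic regions with a motif match (vertical axis) by the number of lists with a peak (horizontal axis), where AP-1 goes from 14.6% in 1 list to 23.0% in 6 and C/EBP from 12.8% to 17.9%.

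The regions lay in 8920 host genes, with a median of 2 per gene, 2837 genes with 1 and 826 with 10 or more. Of the hosts, 70.7% had a promoter peak in all 6 lists and 18.1% in none. Gained shares were 6.45% in hosts of the first kind and 7.07% in the second, and 1.84% and 1.74% of shared regions were called higher. The most regions lay in Gm20388 (354) and Fgfr2 (111), whose models span 4435 and 2961 kb in this annotation and take in other genes. 223 regions had no host other than Gm20388, Fgfr2 or Gm37240, of which 11 were gained, beside 6.01% of all regions. Among the next, Foxp1, a forkhead transcription factor of myeloid and B cell development, held 65 regions in 597 kb. Of these, 29, 32 and 32 had a peak in control and 44, 47 and 46 with MMF. Pde4d, a cyclic AMP phosphodiesterase, held 55, Arhgap26 48, Baz2b 46, Gm20696 and Sgms1 41 each, and Tiam1 38. Sgms1, a sphingomyelin synthase, had a peak at 19, 17 and 16 regions in control and 35, 30 and 28 with MMF. Of its 41 regions, 6 were gained, beside 6.01% of all regions, and 0 were called by limma. Gained counts were 1 of 65 in Foxp1 and 0 of 41 in Gm20696. Regions called higher were scattered: they lay in 200 genes, of which 4 held 2. Those 4, picked after their values were seen, were Plekha6, Spink13, Larp4b and Scrg1.

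Of 30 leukemia and stem genes on a fixed list, 26 held 287 intronic regions, of which 12 were gained (4.18%, beside 6.01% of all regions), and 2 were called higher (1.87%, beside 1.44%) and 1 lower among 107 shared (background 0.421%). By scaled reads, 30 of the 107 were called higher (28.0%, beside 27.4% of shared intronic regions and 18.6% of all shared regions). The median score difference was 0.0058, against 0.090 for shared intronic regions and -0.066 over all shared regions. Most regions lay in Cdk6, a cell-cycle kinase (30), Runx1 (25), Runx2 (23) and Erg (21), transcription factors of blood and bone. In Cdk6, 17, 18 and 16 regions had a peak in control and 23 in each MMF sample. All 3 calls of this list were in 2 genes, and the called sites in this and the following lists are named after their values were seen. In Erg, an ETS factor of stem cells, intron 3 held both a rise and a fall. The site at chr16:95464329-95464999, 5.32 kb from a start and with a C/EBP match, held 49.4, 43.4 and 45.1 scaled reads in control and 115, 96.3 and 93.1 with MMF (score difference 1.30 ± 0.23 SE, limma adjusted p = 0.0403). The site at chr16:95439155-95439479, 19.9 kb from a start, had MYB and IRF matches and no C/EBP match. It held 34.3, 36.2 and 32.2 in control and 28.6, 31.2 and 23.7 with MMF (score difference -1.39 ± 0.28 SE, limma adjusted p = 0.0486). At Igf1r, the receptor for insulin-like growth factor 1, a site in intron 1 with C/EBP and MYB matches held 41.2, 28.9 and 35.5 in control and 90.2, 89.2 and 82.8 with MMF (limma adjusted p = 0.0493).

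Of 30 regulators of myeloid differentiation, 16 held 126 intronic regions, with 6 gained (4.76%, beside 6.01% of all regions). Of 45 shared, 3 were called higher (6.67%, beside 1.44%) and 0 lower. By scaled reads, 14 of the 45 were called higher (31.1%, beside 27.4% of shared intronic regions and 18.6% of all shared regions). The median score difference was 0.126, against 0.090 for shared intronic regions. Ets1 (19 regions), Mitf (16), Tcf7l2 (16) and Elf1 (13) held most. The 3 calls were in Klf7, Stat5b and Mitf. Stat5b transmits cytokine signals, and its site in intron 2, with a C/EBP match, held 19.2, 15.9 and 17.7 scaled reads in control and 38.5, 39.7 and 47.3 with MMF (score difference 1.27 ± 0.23 SE, limma adjusted p = 0.0403). Mitf, a factor of mast cells and osteoclasts, had in intron 1 a site with 24.7, 14.5 and 14.5 against 53.9, 56.7 and 66.5 (limma adjusted p = 0.0494). In Klf7, a zinc-finger factor, a site in intron 2 held 13.7, 15.9 and 14.5 against 40.7, 48.2 and 45.8 (limma adjusted p = 0.0460). The Mitf site had MYB and MYC matches and no C/EBP match, and the Klf7 site had no motif match. The ranks of the groups were separate at all 3 sites, as at all 199 intronic regions called higher, so this adds no further support.

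Of 32 genes of integrins, adhesion and migration, 28 held 281 intronic regions, with 18 gained (6.41%, beside 6.01%) and 1 lost. Of 80 shared, 1 was called higher (1.25%, beside 1.44%). By scaled reads, 25 of the 80 were called higher (31.2%, beside 27.4% of shared intronic regions and 18.6% of all shared regions). Arhgap26 (48), Prex1 (22), Dock2 (20) and Dock10 (19), regulators of small GTPases, held most. The call was in intron 10 of Dock2, which activates RAC in moving leukocytes, at a site with a C/EBP match and with 30.2, 28.9 and 30.6 scaled reads in control and 84.7, 69.4 and 72.4 with MMF (score difference 1.13 ± 0.20 SE, limma adjusted p = 0.0403). Of 34 genes of phagocytosis, lysosome and granules found in the annotation, 21 held 132 regions, with 8 gained (6.06%, beside 6.01%) and 1 of 47 shared called higher (2.13%, beside 1.44%). Lyn (21), Atp8b4 (20), Plcg2 (19) and Wdfy4 (10) held most, and the call was in intron 9 of Syk, the kinase of immune receptors (20.6, 39.0 and 32.2 against 63.8, 65.2 and 65.0, limma adjusted p = 0.0453). The Syk site had a RUNX match and no C/EBP match. The median score difference of this list, 0.239, was the highest of the 6 lists. On the scale of scaled reads, 21 of its 47 shared regions were called higher (44.7%), beside 27.4% of shared intronic regions and 18.6% of all shared regions, and 0 lower.

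Of 25 cytokine receptors and signalling genes, 19 held 75 intronic regions, with 4 gained (5.33%, beside 6.01%) and 0 of 27 shared called by rank in either direction. Jak1 and Tgfbr2 (11 each) and Il6ra and Tnfrsf1b (6 each) held most. Of 21 genes of guanine nucleotide metabolism, the pathway that MMF inhibits, 14 held 43 regions, with 1 gained, in Xdh (2.33%, beside 6.01%), and 0 of 8 shared called. By rank, 1.44% of all shared regions were called higher and 0.421% lower. Xdh (8), Samhd1 (6), Gda (5) and Gmpr (5), which break down or interconvert purines and nucleotides, held most. On the scale of scaled reads, 5 of 27 (18.5%) and 1 of 8 (12.5%) shared regions of these last lists were called higher. The share was 27.4% for shared intronic regions and 18.6% for all shared regions.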

How the data were processed

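Peak lists were deposited for 6 ATAC-seq samples, 3 control and 3 MMF. According to the submitters' processing notes, FastQC, Trim Galore, Bowtie2 and MACS2 were used with mm10, and their versions are not given in the sources used here. The authors called peaks per sample. The deposited columns give the fold enrichment at the summit (a ratio over local background), its −log10 p and its −log10 q. The score column deposited by the authors, the whole part of 10 times −log10 p, was not used. No counts per region or depths are in the files used, and the study's own comparison on reads was not repeated. Peaks off chromosomes 1 to 19 and X were left out (0.362% to 0.447% of a list).

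Here, overlapping peaks were merged and placed with the GENCODE M21 basic annotation (GRCm38). The strongest peak per region and list was used. Whole summit reads were solved from fold enrichment and p under MACS2's Poisson model (100% solved with −log10 p matched within 0.001). limma 3.58.1 (R 4.3.3) compared normal scores. Exact permutation tests over samples compared shares. Motif words were sought in 200 bp around summits in the RefSeq GRCm38 sequence. The statistics across regions were tested on simulated data. Replicate numbers did not pair samples (correlations of deviations of same-numbered samples 0.00266 to 0.00738), so no block was used. The named regions were, by rule, the 10 strongest (1 per host gene), the 10 largest rises and falls among calls, the 5 strongest gained and lost, the 10 hosts with most regions, and up to 4 genes per list. Of these, 1 strongest region and 1 sequence are not reported here. The members, lists and rules were chosen with earlier results of these data known. In the fixed list of phagocytosis genes, 1 of 35 symbols was not found in the annotation. Alternatives are given at the end. Summit reads are small numbers, so counting error limits single regions.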

Additional observations from a re-analysis of the deposited data

How the results depend on the processing

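Intronic regions gained numbered 2293, against 645 at equal list length and 5206 when 2 of 3 lists sufficed, and 2886 to 3571 with 1 sample left out, highest without MMF 3. Lost regions numbered 63, against 368 at equal length, 382 with 2 of 3 lists and 97 when a peak had to cover 50% of its region, and 106 to 196 with any 1 sample left out. That cover rule, and the alternatives for the top 10% of peaks, were chosen after seeing the data; the overlap rule set earlier could not differ, since each peak lies inside its merged region. Leaving a sample out relaxes both rules by construction. The intronic share of peaks differed by 1.81 percentage points, and by 0.322 at equal length. The C/EBP difference of 1.86 points was 1.51 in 100-bp windows, 2.14 in 400-bp windows and 3.1 at equal length; that of CTCF, -0.582, was -0.491 in 100-bp windows; and that of MYC, -0.251, was 0.00625 at equal length.

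limma called 199 shared intronic regions higher and 36 lower, against 330 and 64 on quantile-normalised log2 fold enrichment, 2856 and 82 on scaled reads, and 329 and 44 with a trend in the prior variance. With the replicate number as a block it called 0 higher and 0 lower (1761 and 827 at an unadjusted p under 0.05, smallest adjusted p 0.0828). With 1 sample left out it called 0 to 2 higher and 0 to 0 lower: 2 without control 1, and 0 without control 2, control 3, MMF 1, MMF 2 or MMF 3, where 1414 to 1575 were higher and 705 to 760 lower at an unadjusted p under 0.05. The cause of these losses was not tested. Of the 20 regions named for the largest changes among calls, 18 to 20 passed on the other scales, 0 with the block and 0 to 1 with a sample left out. Total depth is unknown, and the few summit reads per peak limit single values.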
